A study of Mus musculus with 12 samples.

Results

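Retained-intron transcripts are annotated RNAs of protein-coding genes that keep sequence which the coding transcripts of the same gene splice out. They were taken from mouse heart by 1 rule: Ensembl transcripts listed in all 12 deposited files whose GENCODE M21 transcript type is retained_intron, on build GRCm38 (mm10). The rule found 4124 of the 24723 annotated transcripts listed in all 12 files, from 2683 host genes. Of these genes, 921 had 2 or more such transcripts and the most in 1 gene was 7. Total RNA of whole heart was depleted of ribosomal RNA and sequenced, in a study of a decoction in endotoxin-treated mice. The 12 libraries come from 12 C57BL/6 wild-type mice, 4 to a group. The Control group was given saline in place of both agents for 3 days. LPS mice received bacterial lipopolysaccharide at 10 mg/kg for 3 days and saline in place of the second agent. LPS+XJDHT mice had that LPS treatment and were also given XJDHT, the Xijiao Dihuang decoction of the series title, at 50 mg/kg per day. The labels used here give no age, and no group received XJDHT without LPS. The mice are the replicates, and each p-value sets a difference between groups against the spread between these mice.

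Introns are removed from a new transcript by the spliceosome, whose components recognise the start and end of each intron, helped or hindered by SR and hnRNP proteins that bind the RNA. An intron that stays in the RNA often brings a stop codon into the reading frame, and such RNA is commonly held in the nucleus or degraded by nonsense-mediated decay. Genes for splicing factors are known for introns of this kind, and retention is known to change in activated immune cells and in muscle. In RNA from whole tissue that was not selected for poly(A) tails, unspliced precursor RNA and a stable transcript that keeps its intron cannot be told apart. Fewer cells of a type and less RNA per cell cannot be told apart either.

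Of the 4124 transcripts, 1613 held at least 1 whole intron of an annotated coding transcript of the gene inside 1 of their own exons, and 531 of them held 2 or more. The other 2511 held none in full. The sequences shown here are introns kept in members on which the results turn. Lcn2 introns 5 and 6 are kept by members whose share of coding RNA moved most downward, and Srsf5 intron 5 is from a gene known for regulated introns. Each is given 5′ to 3′ on the strand of the gene with 10 exon bases on each side, from the GENCODE M21 transcript sequences on GRCm38, and capitals mark the first and last 2 bases of the intron. Lcn2 intron 5 of 6 in the coding transcript lies at chr2:32385826-32385955 and intron 6 at chr2:32385521-32385705, both on the minus strand. Srsf5 intron 5 of 8 lies at chr12:80947595-80947795 on the plus strand.
Lcn2 intron 5: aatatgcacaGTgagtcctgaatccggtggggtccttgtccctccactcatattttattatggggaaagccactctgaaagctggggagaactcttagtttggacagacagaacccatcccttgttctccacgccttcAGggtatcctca
Lcn2 intron 6: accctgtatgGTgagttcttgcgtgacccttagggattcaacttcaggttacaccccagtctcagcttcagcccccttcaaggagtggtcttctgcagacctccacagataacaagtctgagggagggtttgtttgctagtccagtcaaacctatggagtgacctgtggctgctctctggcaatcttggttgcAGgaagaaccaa
Srsf5 intron 5: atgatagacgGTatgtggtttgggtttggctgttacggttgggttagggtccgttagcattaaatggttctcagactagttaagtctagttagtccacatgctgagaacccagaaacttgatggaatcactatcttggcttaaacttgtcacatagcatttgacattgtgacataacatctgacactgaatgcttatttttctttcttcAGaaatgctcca

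These 3 introns lie between coding exons and measure 130, 185 and 201 bp. All 3 begin with GT and end with AG, the usual pair. For longer introns the first and last 30 bases across the splice sites are shown, 10 of them exonic. They serve to compare Fastk intron 1, kept by a transcript that exceeded its coding transcripts in Control hearts, with introns of Rsrp1, Srsf3 and Srsf5, which belong to the list of RNA processing genes known for regulated introns, and with Rpl18 intron 4, which has no stop codon in frame. Fastk intron 1 lies at chr5:24444306-24445065 on the minus strand and spans 760 bp. Rsrp1 intron 3 lies at chr4:134925433-134926734 and spans 1302 bp. Srsf3 intron 3 lies at chr17:29038625-29040774 with 2150 bp, Srsf3 intron 4 at chr17:29040814-29041206 with 393 bp, and Srsf5 intron 6 at chr12:80947866-80949094 with 1229 bp. Rpl18 intron 4 of 6 lies at chr7:45719637-45719919 with 283 bp. The introns of Rsrp1, Srsf3, Srsf5 and Rpl18 are on the plus strand.
Fastk intron 1, start: ggggagtcatGTagggtggcgcctgagggg
Fastk intron 1, end: tttctgggccaccccctcAGggtctccacc
Rsrp1 intron 3, start: aaaggtggagGTaagtgccttcaggaagct
Rsrp1 intron 3, end: aaaattctcttcctctttAGcattcagaaa
Srsf3 intron 3, start: ctcggcgcagGTacttgagagagcaccttt
Srsf3 intron 3, end: tttactgtttctgcttctAGatccccaaga
Srsf3 intron 4, start: gccggagcagGTaaatgttttggtgccctg
Srsf3 intron 4, end: gaatgtgctgtttgttttAGgtcactttct
Srsf5 intron 6, start: cagctggcagGTttgttgaaatacagtttt
Srsf5 intron 6, end: cataattgtcttgtgttaAGgatctcaaag
Rpl18 intron 4, start: gtcccgcatgGTtagtagtcagccagaggg
Rpl18 intron 4, end: aacatgcttgcccccatcAGatccgaaaga

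In all, 2374 different introns were kept whole in members. They were short, with a median of 244.5 bp (quartiles 109.0 to 614.0). The 30522 other introns of listed coding transcripts of the same genes had a median of 997 bp (313.0 to 2501.0). A kept intron had to lie whole inside an exon of a member, and members had a median length of 919 bases. Introns longer than these exons could not count as kept and fell among the others. The difference in length is thus partly built in, and how much of it was not tested. Introns under 300 bp made up 55.9% of the kept introns and 24.3% of the others. The 6676 introns kept in retained-intron transcripts that are annotated but not listed in all 12 files had a median of 278 bp and differed little from the kept ones in GC content (51.2% against 52.0%). GT and AG ended 97.6% of the kept introns, and 18.6% began with GTAAG, the letters most like the pairing site of U1 RNA, against 21.5% of those not listed. Of the kept introns, 93.3% lay between coding exons, 11.2% were the first intron and 10.6% the last. Reading on from the upstream coding frame, 1955 of 2215 introns between coding exons (88.3%) held TAA, TAG or TGA in frame. Of the 257 introns without a stop in frame, 68 had a length that is a multiple of 3. A match of letters is a description of the annotation and says nothing about whether the RNA was translated.

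**Figure D1:**
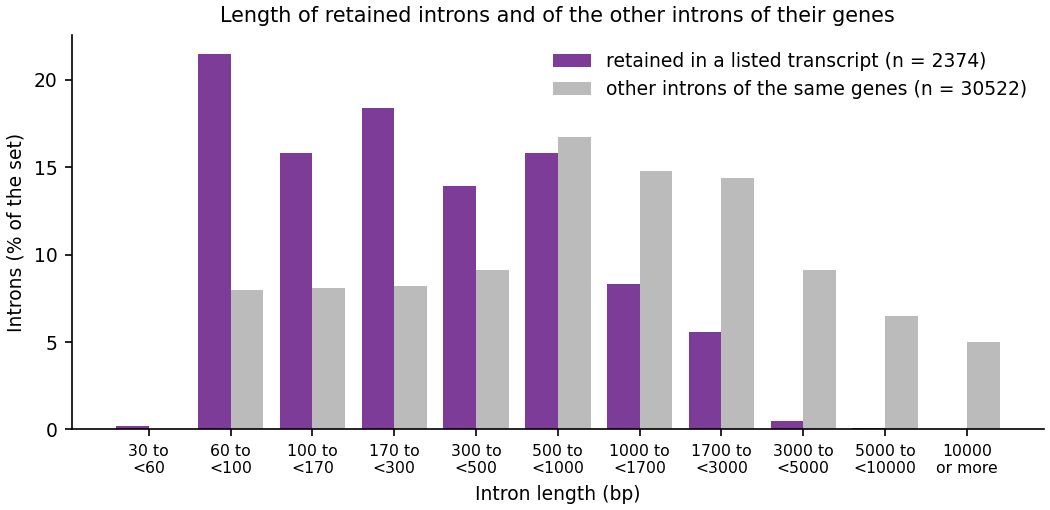
Length of introns kept whole in retained-intron transcripts (2374 introns) and of the other introns of listed coding transcripts of the same genes (30522 introns), as percent of each set in each length class in bp. Kept introns fill the classes below 300 bp (55.9% of them), and the other introns reach further to the right (24.3% lie below 300 bp). A kept intron had to lie whole inside an exon of a member, so this difference is partly built in.

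Expression is given as FPKM, fragments relative to transcript length and library depth, as the authors deposited it for each transcript. The libraries held 73.76 to 77.81 M fragments, recovered from the values, so depth differed little between groups. A member was measured with a median of 86.8 fragments per library (quartiles 39 to 204.5). Summed cardiomyocyte markers (6 of 6 listed) were lower in LPS hearts (3800 to 5280 FPKM) and LPS+XJDHT hearts (3360 to 4840) than in Control hearts (6730 to 7680). Neutrophil markers (5 of 5 listed) reached 76.5 to 114 FPKM in LPS and 72.2 to 148 in LPS+XJDHT hearts against 1.15 to 2.68 in Control. Fibroblast markers (5 of 5) stood at 405 to 541, 777 to 1020 and 697 to 1080 FPKM, endothelial markers (4 of 4) at 105 to 130, 120 to 165 and 113 to 155, and macrophage markers (5 of 6, Ccr2 not listed) at 55.6 to 86.4, 60.7 to 159 and 77.0 to 120. Small intestine markers (4 of 5, Alpi not listed) were present at 8.93 to 13.9 FPKM in the 4 LPS libraries and at most 1.55 in the other 8, and none of 5 skeletal muscle markers was listed. The part of these differences in the results was not tested.

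Most members were weakly expressed. Their mean over the 12 libraries had a median of 0.876 FPKM (quartiles 0.597 to 1.619), and 122 of 4124 reached 10 FPKM. The 10 highest held 10.2% and the 100 highest 32.8% of all member FPKM. Of the members of highest mean level, 3 are described here, from genes of DNA repair, contraction and energy supply. Uimc1-205 (chr13:55077457-55086192, minus strand) belongs to the gene of a ubiquitin-binding DNA repair protein and has 76.1% of its bases outside coding exons. It stood at 56.9, 57.2, 49.9 and 50.8 FPKM in Control, 92.5, 101, 87.8 and 91.2 in LPS and 95.4, 102, 86.1 and 95.8 in LPS+XJDHT hearts. The Control values lay below all the others, while the coding transcripts of Uimc1 together stayed between 0.193 and 2.47 FPKM in all 12 hearts.

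The other described members at the top varied strongly within a group. Tnni3-202, from the cardiac troponin I gene, ranged from 71.6 to 335 FPKM in Control, 69.7 to 144 in LPS and 41.7 to 127 in LPS+XJDHT, and Atp5j-208, from an ATP synthase gene, from 13.7 to 221, 12 to 41.5 and 13.3 to 131. The groups overlapped in both. Neither held a whole intron of a coding transcript, and 8.87% and 19.0% of their bases lay outside coding exons.

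On the scale of log2(FPKM + 1), the spread was widest among abundant members. The added 1 FPKM narrows the spread of weak members on this scale. Among the 122 members at 10 FPKM or more, the median standard deviation within a group was 0.77 on the log2 scale, against 0.23 for the 3214 coding transcripts at that level. In 46 of the 122 (37.7%) the 4 hearts of at least 1 group spanned 8-fold or more in FPKM + 1. The same held for 8.93% of coding transcripts and 48.4% of transcripts annotated for nonsense-mediated decay at that level. Over all tested members the median was 0.41, close to the 0.37 of coding transcripts. How fragments were assigned among overlapping transcripts of a gene is not given in the sources used here. A member had a median of 34.5% of its bases outside all coding exons (quartiles 17.6 to 54.1), and the rest of its bases lie in exons of coding transcripts.

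Summed over all members with a listed coding transcript (3899 members, 2518 genes), retained-intron FPKM came to 7.72%, 7.44%, 8.65% and 8.60% of the coding FPKM of the same genes in the 4 Control hearts. It came to 9.22%, 9.04%, 7.74% and 8.60% in LPS hearts and 8.96%, 9.24%, 9.11% and 9.10% in LPS+XJDHT hearts. The means were 8.10% ± 0.613, 8.65% ± 0.659 and 9.10% ± 0.114 (SD, n = 4 each). Control and LPS hearts overlapped, and all 4 LPS+XJDHT hearts lay above all 4 Control hearts. The median share over members was 6.63%, 6.75%, 9.03% and 9.14% in Control, 10.1%, 10.7%, 7.82% and 9.33% in LPS and 9.26%, 9.69%, 9.42% and 9.73% in LPS+XJDHT. Members at 0 FPKM numbered 98, 124, 82 and 64 in Control hearts and 30 to 52 in the other 8. These sums depend on which transcripts are counted, and with members that hold a whole intron alone they were 6.59%, 7.66% and 8.07%. Every member had a mean of at least 0.5 FPKM in LPS or LPS+XJDHT hearts, a floor that Control means did not have to meet. Sums, median shares and numbers at 0 in Control are thus tied to the listing rule. Its part in the differences from Control was not tested.

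**Figure D2:**
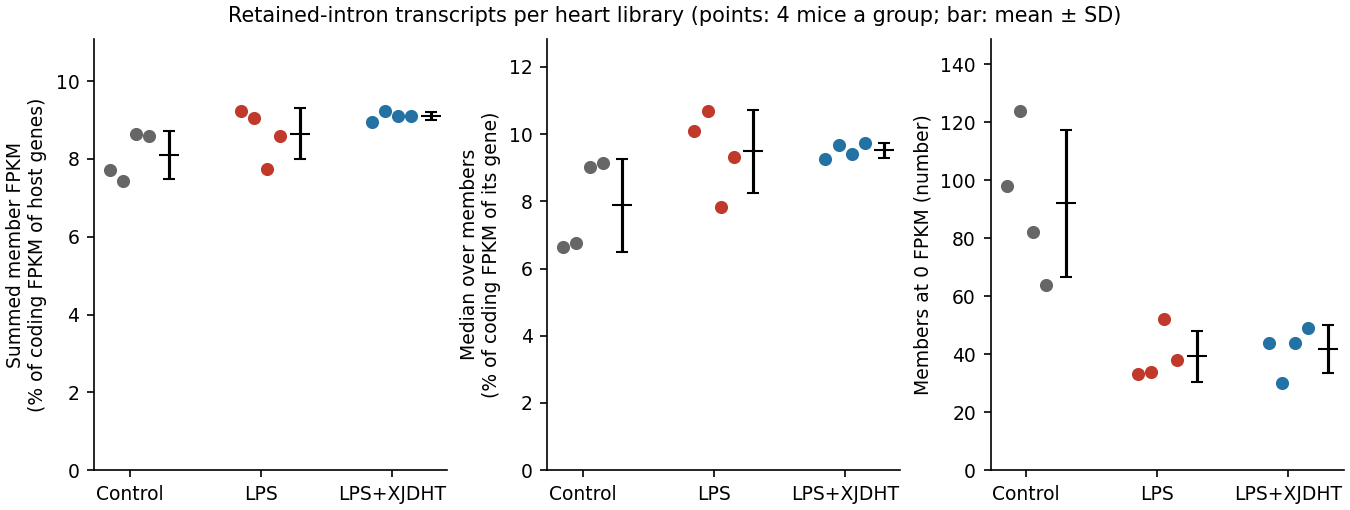
Summed FPKM of retained-intron transcripts as percent of the coding FPKM of their genes, the median percent over members, and the number of members at 0 FPKM, in each of the 12 heart libraries (points: 4 mice a group, bars: mean ± SD). Control and LPS hearts overlap in the first 2 panels, and all Control hearts have more members at 0 (64 to 124) than the other 8 hearts (30 to 52). Every member had a mean of at least 0.5 FPKM in LPS or LPS+XJDHT hearts, a floor that Control means did not have to meet.

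The first comparison asked which retained-intron transcripts differ between hearts with and without LPS. Among the 2255 members that reached 1 FPKM in 4 or more of the libraries, 296 rose (13.1%) and 102 fell (4.52%) in LPS against Control at an adjusted p below 0.05 (limma on log2(FPKM + 1), Benjamini-Hochberg over all 18644 transcripts tested, two-sided). Over all transcripts tested the shares were 17.3% higher and 8.26% lower, so both shares of members are the smaller numbers, a difference that was not itself tested. These shares are not matched for expression level, and values by level follow below. Coding transcripts stood at 17.5% and 9.05%, and transcripts annotated for nonsense-mediated decay at 12.9% and 5.34%. The median change of members was 0.20 on the log2 scale, against 0.15 over all transcripts. The share of calls that went up depended on the scaling: with each library divided by its median ratio to the average library, 224 rose and 151 fell (59.7% up in place of 74.4%), and the median over all transcripts moved from 0.15 to 0.04. Counts of calls moved with single libraries, to 187 up without Control replicate 1, 183 up without LPS replicate 1 and 60 down without Control replicate 3. With voom on recovered fragments 188 rose and 69 fell.

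The rule that a member be listed in all 12 files touches this comparison. Retained-intron transcripts listed in the Control and LPS files but not in the LPS+XJDHT files numbered 501, all left out by the rule. These 501 had a higher mean in Control than in LPS, with Control means from 0.5 FPKM upward and LPS means up to 0.5 FPKM. Of these, 15 could be tested in a fit of the 8 Control and LPS libraries alone, where 13 fell (limma). In that fit 174 rose and 100 fell of 1613 retained-intron transcripts tested. The filter of 1 FPKM in 4 libraries was there applied to 8 libraries, so these counts do not show the listing rule alone. A fit of Control and LPS alone on the 2255 members of the main test gave 220 up and 81 down.

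The members called were spread over all levels. Among members at 10 FPKM or more 19.7% rose, and among those under 1 FPKM 10.8% did. Of coding transcripts, 32.7% rose at 10 FPKM or more and 8.47% under 1 FPKM. At 1 to 3 FPKM, which holds 1256 of the tested members, 12.3% of members and 10.0% of coding transcripts rose. At 3 to 10 FPKM the shares were 17.0% and 17.6%. Members that fell made up 1.8%, 4.62%, 7.43% and 5.74% from the lowest level to the highest. For coding transcripts these were 3.57%, 7.38%, 8.94% and 14.1%. Of the 627 tested members with 50% or more of their bases outside coding exons, 17.1% rose and 5.1% fell, against 11.6% and 4.3% of the other 1628.

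The largest increase among members at 2 FPKM or more in the higher group was in Lcn2, the gene of lipocalin 2, an iron-scavenging protein that neutrophils and stressed tissue secrete. Lcn2-202 (chr2:32386556-32387759) was at 0.655, 0.742, 0.472 and 0.18 FPKM in Control, 115, 77.8, 53.2 and 73.8 in LPS and 71.4, 85.2, 59.9 and 61.5 in LPS+XJDHT (log2 change 5.71, SE 0.22, adjusted p = 5.61e-08, limma, LPS against Control). Lcn2-203, which keeps introns 5 and 6, was at 0.385, 1.59, 0.715 and 0.203 FPKM in Control, 54.3, 24.9, 17.1 and 30.5 in LPS and 29.7, 35.7, 21.5 and 33.2 in LPS+XJDHT. Both groups of treated hearts lay above Control without overlap. Neutrophil markers were higher in the same hearts, and their part in these values was not tested.

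Other increases among the 8 of largest size were in genes of glycolysis, signalling, nucleotide salvage, translation and the thin filament. Upp1-204, from the gene of uridine phosphorylase, went from 0.196–0.764 FPKM in Control to 7.0–9.54 in LPS (log2 change 2.72, adjusted p = 7.15e-06, limma). Ranges written with a dash give the lowest and highest heart of a group, Control before the treated group. Pfkfb3-219, from a gene that drives glycolysis, was at 0.37, 0.11, 0.681 and 0.934 FPKM in Control and 11.8, 13.5, 5.96 and 10.7 in LPS (log2 change 2.89, adjusted p = 0.000477, limma). In LPS+XJDHT hearts it spread from 1.79 to 10.9. Camk1-202, from a calcium and calmodulin-dependent kinase gene, was listed at 0 in Control replicates 1 and 2, at 5.84 and 5.48 FPKM in the other 2, and at 12.6 to 20.3 in LPS. Rpl18-210, from a gene of the large ribosomal subunit, was at 0.0636, 0, 0.324 and 0.031 FPKM in Control and 15.3, 13.6, 10.1 and 11.1 in LPS, while LPS+XJDHT replicate 3 stayed at 0.222 next to 17.1, 14.7 and 10.9. Its call (adjusted p = 0.00307, limma) was lost with voom on fragments (adjusted p = 0.281). Tpm1-217, from the main cardiac tropomyosin gene, was at 1.85, 1.78, 1.85 and 3.41 FPKM in Control and spread from 4.78 to 53.0 in LPS. Its call (adjusted p = 0.0104, limma) was also lost with voom (adjusted p = 0.0972). Bases outside coding exons made up 5.59% of Camk1-202, 13.6% of Pfkfb3-219, 26.9% of Upp1-204, 33.9% of Rpl18-210 and 44.3% of Tpm1-217. Pfkfb3-219 and Upp1-204 held no whole intron of a coding transcript. Which bases carried these changes was not tested.

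Decreases were led by members of cilium, contraction, channel and vessel genes. Ift81-203, from an intraflagellar transport gene, was at 19.6, 18.1, 15.5 and 18.9 FPKM in Control, 0.173, 0.603, 5.79 and 0.439 in LPS and 1.96, 0.597, 2.38 and 0.604 in LPS+XJDHT (log2 change -3.19, SE 0.49, adjusted p = 0.000804, limma). LPS replicate 3 was the highest treated heart and still below all Control hearts. The coding sum of Ift81 overlapped between Control (5.29 to 7.04 FPKM) and LPS (3.0 to 6.11). Kcnip2-204, from the gene of a subunit of the transient outward potassium channel, was at 3.18, 11.8, 15 and 18.2 FPKM in Control and 0.0209 to 0.912 in LPS (log2 change -2.97, adjusted p = 0.000858, limma), and its coding sum fell as well (log2 change -1.42, adjusted p = 0.0225). Tnni3-206, which keeps intron 3 of troponin I, was at 50.7, 24.5, 101 and 31.9 FPKM in Control and 0.837 to 13.5 in LPS (log2 change -3.03, adjusted p = 0.00355, limma). Summed cardiomyocyte markers, of which Tnni3 is 1, were lower in the same hearts.

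Vegfa-208, from the gene of the main vascular growth factor, was at 8.11 to 18.4 FPKM in Control and 0.782 to 4.67 in LPS (log2 change -2.12, adjusted p = 0.00434, limma), together with its coding sum (log2 change -1.67, adjusted p = 0.000181). Sar1a-205, from a gene of vesicle transport, was at 9.4 to 13.3 FPKM in Control and 1.13 to 3.37 in LPS (log2 change -1.95, adjusted p = 0.000167, limma). Pi16-203, from a gene expressed by fibroblasts, keeps 4 overlapping annotated introns and was at 4.31 to 6.72 FPKM in Control and 0.0489 to 1.45 in LPS (log2 change -2.07, adjusted p = 0.00086, limma). Myzap-202, from a gene of the intercalated disc, was at 12.3 to 21.0 FPKM in Control and 1.2 to 8.47 in LPS (log2 change -1.88, adjusted p = 0.00495, limma). Cacnb2-211, from a calcium channel subunit gene, was at 4.71 to 6.53 FPKM in Control and at 1.88, 0, 0 and 4.6 in LPS. Its call (adjusted p = 0.0205, limma) was lost without LPS replicate 2 (adjusted p = 0.0535) and in a fit of Control and LPS alone (adjusted p = 0.0529).

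A change of a member can follow its gene, so members were set beside the summed coding FPKM of the gene. Of the 296 members that rose, the coding sum rose in 148, fell in 12 and had no call in 116, and in 20 it could not be tested. Of the 102 that fell, it fell in 38, rose in 8 and had no call in 47. Across the 2106 members with both values the changes had a Pearson r of 0.36, where both are measured in the same libraries and share the gene's fragments. Of 438 genes with 2 or more tested members, 120 had 1 member called and 23 had 2 or more, and the others had none. Among the 23, the calls went in the same direction in 19. They went in opposite directions in Fkbp1a, Fnta, Lmo7 and Mat2a, which are named because they are the 4 exceptions.

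The share of a member, its FPKM relative to the coding FPKM of its gene, was then tested on the log2 scale, with 1 FPKM added to the member and to the coding sum. In LPS against Control the share rose for 56 of 2106 members (2.66%) and fell for 84 (3.99%), at an adjusted p below 0.05 (limma, adjusted over 3243 non-coding transcripts of genes with a listed coding transcript). Over all these transcripts 3.39% were higher and 4.01% lower. The members' shares thus lay near that background, and their median change was -0.02. Transcripts of the type processed_transcript stood at 5.7% higher and 4.56% lower. These counts rest on all 12 libraries. The number up was 20 to 35 without any 1 of Control replicates 1 (20), 2 (30), 3 (34) and 4 (32) and LPS replicates 1 (25), 2 (23) and 4 (35), and the number down was 48 to 50 without Control replicate 3 (50), Control replicate 4 (50) or LPS replicate 1 (48). When the coding sums also took in coding transcripts that only the Control and LPS files list, 32 were up.

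Shares that fell mostly belonged to genes whose coding RNA rose. The coding sum is the denominator of the share, so this link is partly built in and is not a separate result. The added 1 FPKM also holds the numerator of weak members nearly still. With a pseudocount of 0.1 FPKM, 44 shares fell in place of 84. Of the 84 members with a lower share (75 genes), the coding sum rose in 74, and the member itself rose in 25, had no call in 44 and fell in 15. Of the 56 with a higher share (52 genes), the coding sum fell in 28 and had no call in 26, and the member rose in 34 and had no call in 22. With 2 exceptions in which both rose, no member with a higher share had a coding sum that rose. Introns kept by members with a higher share (30 introns of 22 members) had a median length of 267.5 bp and GC content of 46.7%, those with a lower share (66 introns of 36 members) 230.0 bp and 52.0%, and those without a call (1238 introns) 252.5 bp and 52.2%. A stop codon in frame was present in 93.1%, 86.9% and 88.7% of those between coding exons.

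**Figure D3:**
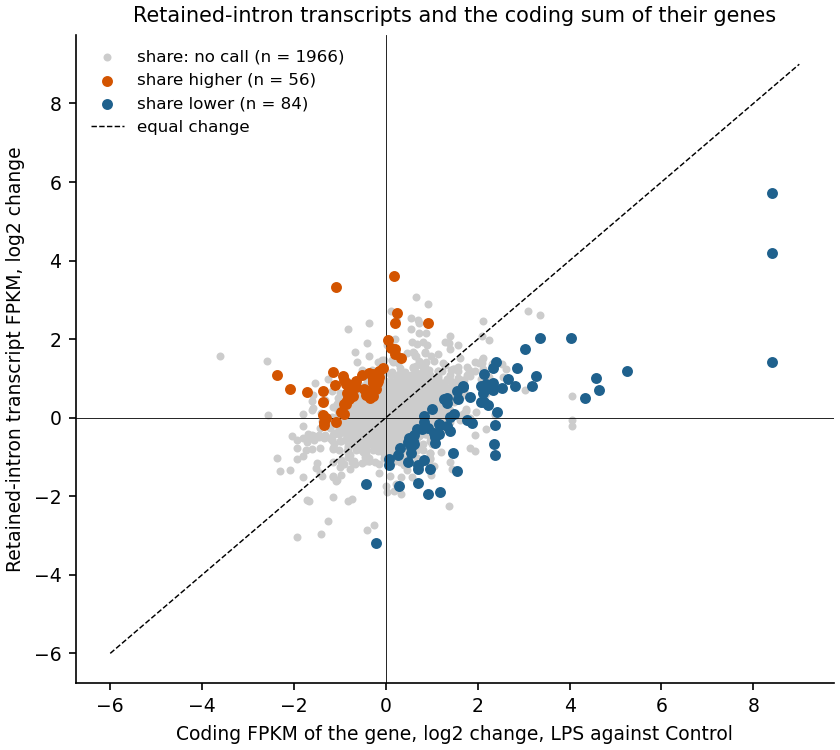
Log2 change of each tested retained-intron transcript (vertical axis) against the log2 change of the coding FPKM of its gene (horizontal axis), LPS against Control, 2106 members. Members with a higher share (56, orange) lie above the dashed line of equal change and mostly left of 0, those with a lower share (84, blue) lie below it and mostly to the right, and the 3 members of Lcn2 stand at the far right. The coding sum is the denominator of the share, so this layout is partly built in.

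Among the higher shares, Ptcd3-207, from a gene of the mitochondrial ribosome, had shares of 1.58%, 1.22%, 1.42% and 26.9% in Control and 25.8% to 37.7% in LPS, with the values of Control replicate 4 and the lowest LPS heart next to each other. Its call (adjusted p = 0.0222, limma) was lost without each of Control replicates 1, 2 and 3 (0.0633, 0.063 and 0.0673) and LPS replicates 1, 2 and 4 (0.0513, 0.0598 and 0.0543).

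Adamts9-203, from the gene of a matrix-cleaving protease of vessels and heart valves, has 81.8% of its bases outside coding exons. Its share was 4.07%, 19.1%, 9.24% and 7.55% in Control, 239%, 105%, 91.3% and 94.5% in LPS and 71.0%, 136%, 88.4% and 109% in LPS+XJDHT (log2 change 1.94, SE 0.38, adjusted p = 0.0102, limma, LPS against Control). The coding sum stayed at 1.66 to 5.57 FPKM in Control and 2.55 to 3.72 in LPS. Eif4a2-208 keeps an intron of 80 bp from a translation helicase gene, at chr16:23110154-23110233. Its share was 2.99%, 1.84%, 2.18% and 2.81% in Control and 7.79%, 11.5%, 5.23% and 8.43% in LPS (log2 change 1.21, SE 0.26, adjusted p = 0.0159, limma). In neither did the treated hearts overlap with Control. Other members among the 8 largest increases were Rpl18-210, Tpm1-217, Bcr-203, Wdr11-204 and Rhot2-216, with log2 changes from 2.03 to 3.43, and each lost its call without at least 2 of the libraries in turn. For Rpl18-210 these were Control replicate 4 (adjusted p = 0.0531) and LPS replicate 1 (0.0511). The adjusted p reached 0.115 for Tpm1-217 and 0.112 for Bcr-203 without LPS replicate 2, 0.0989 for Wdr11-204 without LPS replicate 1 and 0.076 for Rhot2-216 without Control replicate 1.

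The lower shares were led by members of Lcn2, a gene of the acute phase response. Lcn2-205, which keeps intron 5, had 0.108, 0.054, 0.0695 and 0.035 FPKM in Control and 1.97, 2.78, 0.523 and 2.99 in LPS. As a share this was 2.0%, 0.524%, 1.6% and 0.838% against 0.0719%, 0.11%, 0.0324% and 0.127%. The coding sum went from 4.17–10.3 to 1610–2740 FPKM, so the member rose (log2 change 1.43, adjusted p = 0.00516, limma) while its share fell (log2 change -6.97, SE 0.32, adjusted p = 2.4e-07, limma). The size of that fitted change depends on the added 1 FPKM, since the member lay far below it in Control. Lcn2-203 went from 4.88%–16.4% in Control to 0.986%–1.98% in LPS, and Lcn2-202 from 4.32%–12.2% to 3.08%–4.2%, without overlap in Lcn2-203 and with LPS replicate 1 and Control replicate 4 close together in Lcn2-202.

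Fastk-213 (chr5:24441040-24445187), from the gene of a kinase-like protein that acts on mitochondrial RNA, keeps the first intron of 9 and was the main listed transcript of its gene in Control. It stood at 26.0, 28.6, 28 and 26.6 FPKM in Control and 13.0, 15.5, 10.1 and 17.4 in LPS (log2 change -0.94, SE 0.19, adjusted p = 0.00387, limma). The listed coding transcripts summed to 0.396 to 1.11 FPKM in Control and 2.69 to 19.0 in LPS, so the share went from 2570%–6710% to 53.3%–576%. The call on the share (adjusted p = 0.016, limma) was lost when coding transcripts missing from the LPS+XJDHT files were counted (adjusted p = 0.207) and when all transcripts of the gene formed the denominator (0.15). Ift81-203 went from 268%–345% of coding FPKM in Control to 2.93%–94.7% in LPS (log2 change -2.98, adjusted p = 0.00445, limma), and Sar1a-205 from 14.7%–71.0% to 1.74%–4.88% (log2 change -2.86, adjusted p = 0.0119, limma). Trdn-204, from the triadin gene of the calcium release unit, went from 136%–344% to 11.4%–61.6%, and its call (adjusted p = 0.0296, limma) was lost without any 1 of 5 libraries, Control replicates 1 (0.0759), 2 (0.0661) and 3 (0.0811) and LPS replicates 1 (0.0831) and 2 (0.0775).

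**Figure D4:**
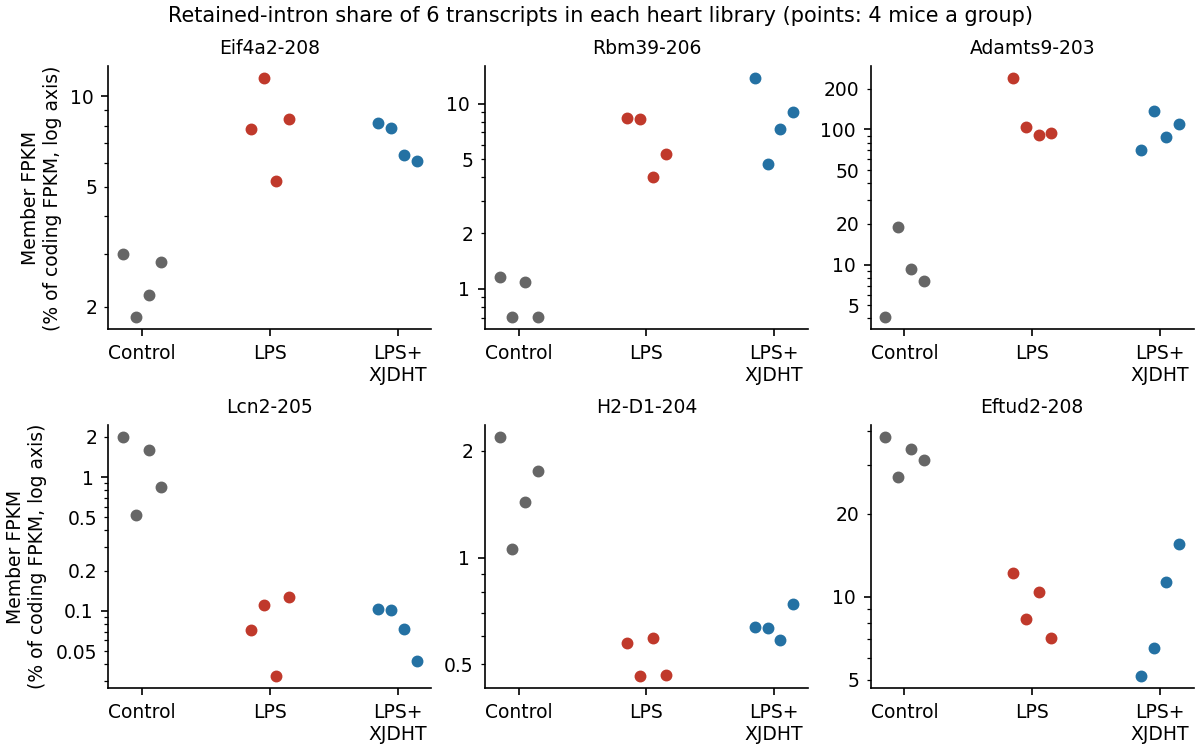
Share of coding FPKM of the gene (percent, log axis) for 6 retained-intron transcripts in each heart (points: 4 mice a group). The first 3 (Eif4a2-208, Rbm39-206, Adamts9-203) lie higher in every LPS heart than in every Control heart, and the last 3 (Lcn2-205, H2-D1-204, Eftud2-208) lie lower.

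Members were then grouped by lists of host genes, whose counts are set beside the share of all features called, 17.3% higher and 8.26% lower by FPKM and 3.39% higher and 4.01% lower by share. In genes of innate immunity and inflammation, 20 of 40 tested members rose and 1 fell by FPKM in LPS against Control, with a median log2 change of 0.89. By share, 1 rose and 10 fell, with a median of -0.83. The count and the median by share depend on the added 1 FPKM where members lie near or below it. The list was not counted at other pseudocounts. H2-D1-204, from a class I antigen presentation gene, was at 0.85 ± 0.256 FPKM in Control and 1.32 ± 0.267 in LPS (SD, n = 4 each), without a call. Its coding sum rose from 48.6–56.4 to 216–284 FPKM, and its share fell from 1.06%–2.19% to 0.463%–0.593% (log2 change -1.89, SE 0.19, adjusted p = 0.000199, limma). Icam1-202, from the gene of a leukocyte adhesion molecule, rose from 0.0963–0.305 to 0.759–1.49 FPKM (log2 change 0.80, adjusted p = 0.00247, limma). Its share was 1.52% to 4.55% in Control and 1.22% to 1.88% in LPS, which overlap, and the fitted fall of the share (log2 change -2.39, adjusted p = 1.36e-05) was lost with a pseudocount of 0.1 FPKM (adjusted p = 0.0717). The summed neutrophil markers were higher in these hearts, as given above, and how much of the change in these members they account for was not tested.

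In genes of mitochondrial energy supply, 4 of 73 tested members rose and 2 fell by FPKM (median -0.20), and by share the 4 calls among 70 were all increases (median 0.12, against 0.00 over all tested transcripts). They include Idh3a-202 and Idh3a-203, both from a subunit gene of isocitrate dehydrogenase. Idh3a-202 was at 0.0204 to 1.47 FPKM in Control and 0.701 to 1.24 in LPS, while the coding sum of Idh3a fell from 186–220 to 82.9–135 FPKM. Its share call (adjusted p = 0.0202, limma) was lost with a pseudocount of 0.1 FPKM (0.114) and without Control replicate 1 (0.0536), Control replicate 3 (0.0513) or LPS replicate 2 (0.0596). That of Idh3a-203 (log2 change 1.02, adjusted p = 0.0436, limma) was lost without any 1 of the 8 Control and LPS libraries, with adjusted p from 0.0584 to 0.11.

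In genes of the ribosome and of translation, the 15 calls among 75 tested members by FPKM were all increases (limma, median 0.41), and by share 2 rose and 3 fell. These counts lie near the 17.3% of all transcripts that were higher by FPKM and the 3.39% and 4.01% higher and lower by share. In genes of the sarcomere, calcium handling and channels, 5 of 35 rose and 8 fell by FPKM (median -0.24), and by share 1 rose and 4 fell, beside 17.3% and 8.26% of all transcripts by FPKM and 3.39% and 4.01% by share. Tpm3-212, from a tropomyosin gene of slow and non-muscle type, was at 1.3 to 4.25 FPKM in Control and 3.86 to 5.19 in LPS without a call, while the coding sum rose from 6.22–8.16 to 23.5–46.0 FPKM. Its share fell from 17.5%–58.9% to 10.1%–16.4% (log2 change -1.74, SE 0.35, adjusted p = 0.0123, limma).

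**Figure D5:**
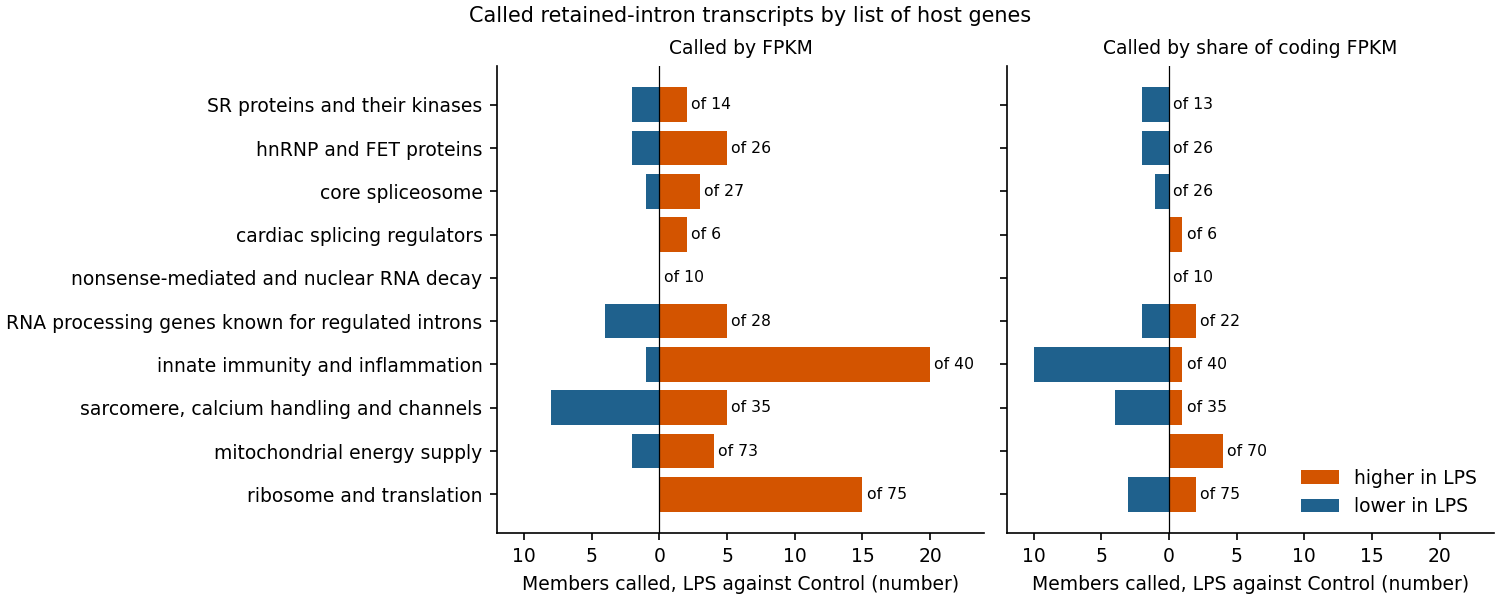
Number of retained-intron transcripts called in LPS against Control by list of host genes, by FPKM (left) and by share of coding FPKM (right), with the number tested beside each bar. Orange bars to the right count members higher in LPS and blue bars to the left those lower. Innate immunity genes have 20 of 40 members higher by FPKM and 10 of 40 lower by share. Over all transcripts tested, 17.3% were higher by FPKM and 4.01% lower by share.

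Genes of RNA processing host many annotated retained introns. Of the genes listed as known for regulated introns, 5 of 28 tested members rose and 4 fell by FPKM, and 2 of 22 rose and 2 fell by share. Members of SR protein and SR kinase genes rose in 2 and fell in 2 of 14 by FPKM, those of hnRNP genes in 5 and 2 of 26, and those of core spliceosome genes in 3 and 1 of 27. Over all transcripts 17.3% were higher and 8.26% lower by FPKM, and 3.39% and 4.01% by share, so nothing is read from these small counts about the lists. Rbm39-206, from the gene of a splicing coactivator, has 83.7% of its bases outside coding exons. It was at 0.246, 0.192, 0.353 and 0.24 FPKM in Control, 3.28, 2.01, 0.665 and 0.983 in LPS and 2.47, 0.946, 1.64 and 2.23 in LPS+XJDHT. Its share rose from 0.702%–1.16% to 4.0%–8.32% (log2 change 1.29, SE 0.25, adjusted p = 0.00991, limma) at an overlapping coding sum. Mat2a-207, from the gene of the enzyme that makes the methyl donor S-adenosylmethionine, is 1 unspliced block. Its share was 1.14% to 1.87% in Control, 3.79% to 8.02% in LPS and 4.9% to 7.47% in LPS+XJDHT. In LPS against Control the call (adjusted p = 0.0236, limma) was lost without each of Control replicates 1 to 4 (0.0574, 0.0504, 0.0658 and 0.0516) and LPS replicates 1 (0.0685) and 2 (0.0679), although the 2 groups do not overlap.

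Eftud2-208, from the gene of the U5 GTPase of the spliceosome, was at 1.96 to 2.42 FPKM in Control and 0.749 to 1.6 in LPS, and its share fell from 27.1%–37.9% to 7.09%–12.2% (log2 change -1.27, SE 0.24, adjusted p = 0.00872, limma). Rbpms-211, from the gene of an RNA-binding protein that shapes splicing in heart muscle, rose from 0.318–1.77 FPKM to 6.92–8.59 (log2 change 2.40, adjusted p = 5.88e-05, limma), with a coding sum that also rose (log2 change 0.92, adjusted p = 0.0034). Srsf2-203, from an SR protein gene, keeps introns beyond the coding end, and its share was 17.9% to 24.8% in Control and 6.69% to 13.7% in LPS (adjusted p = 0.0374, limma). Srsf5-207, which keeps intron 5 shown above and intron 6, was at 0.99, 0.871, 0.999 and 0.833 FPKM in Control, 2.48, 1.6, 1.46 and 1.24 in LPS and 2.18, 3.52, 2.9 and 3.19 in LPS+XJDHT, while the coding sum of Srsf5 rose from 26.9–38.5 to 76.8–121 FPKM in LPS. Its share was 2.16% to 3.71% in Control and 1.14% to 2.09% in LPS. The calls on the shares of Srsf2-203 and Srsf5-207 were lost without most single libraries, with adjusted p up to 0.101 without LPS replicate 2 and 0.116 without LPS replicate 4. Rsrp1-204 fell from 3.8–12.9 FPKM in Control to 1.4–2.23 in LPS (log2 change -1.35, adjusted p = 0.0124, limma) together with its coding sum (11.9 to 25.7 against 1.08 to 5.46 FPKM). Srsf3-204, which keeps introns 3 and 4, was at 0.587 to 1.06 and 0.599 to 1.67 FPKM, without a call.

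The RNAs of the machinery itself were compared as gene sums, with 26.6% of 11509 genes higher and 12% lower as background. Of hnRNP and FET genes, which encode RNA-binding proteins that often repress splicing, 15 of 30 rose in LPS against Control and 1 fell. Hnrnpa1 rose from 38.6 ± 1.23 to 86.2 ± 8.68 FPKM and Ptbp2 from 4.79 ± 0.637 to 11.6 ± 3.36 (SD, n = 4), and Hnrnpa2b1 fell from 134 ± 13.9 to 112 ± 8.5. Of SR proteins and their kinases, 2 of 19 rose (Srsf5, 69.5 ± 11.2 to 185 ± 33.1 FPKM, and Srsf3, 19.1 ± 5.01 to 28.4 ± 3.07) and 4 fell (Srpk3, Srsf7, Clk1 and Srsf10). Srpk3, the muscle kinase of SR proteins, went from 5.54 ± 0.729 to 2.10 ± 0.947 FPKM. Of the core spliceosome 17 of 49 rose and 2 fell, and of decay factors 11 of 29 rose and 1 fell, but 8 and 6 rose under median-ratio scaling. Of regulators of cardiac splicing, Rbpms and Mbnl1 rose, and Rbfox1 (5.77 ± 1.15 to 1.38 ± 0.867 FPKM) and Rbm38 (34.7 ± 12.5 to 14.6 ± 2.22) fell, among 11 tested.

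The second comparison asked whether XJDHT given with LPS changed these transcripts against LPS alone. No member was called in either direction by FPKM (0 of 2255, also 0 with voom) or by share (0 of 2106) with limma. Voom was not run on the share. Over all transcripts 0.0107% were higher and 0.0858% lower by FPKM, and 0.0% and 0.0308% by share. At an unadjusted p below 0.05 there were 113 members (5.01%) by FPKM and 85 (4.04%) by share, beside 4.89% and 4.38% of all tested. The median standard error of a member's difference was 0.28 on the log2 scale by FPKM and 0.38 by share. Differences several times their standard error also went without a call, as the members below show. The absence of calls thus does not exclude differences of that size. Leaving out LPS+XJDHT replicate 3 gave 1 call, Nop56-218 (adjusted p = 0.0192, limma), and leaving out any other library gave 0.

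The members of lowest p are given as values. Pdha1-204, from a subunit gene of pyruvate dehydrogenase, was at 1.66, 1.82, 2.04 and 1.94 FPKM in LPS and 3.22, 4.77, 3.5 and 2.87 in LPS+XJDHT, with Control at 2.22 to 3.33, overlapping LPS+XJDHT (log2 difference 0.67, SE 0.16, adjusted p = 0.55, limma). Fbln2-206, from the gene of the matrix protein fibulin 2, was at 0.889, 0.72, 0.913 and 0.728 FPKM in LPS and 2.14, 2.45, 3.5 and 1.85 in LPS+XJDHT (log2 difference 0.92, SE 0.23, adjusted p = 0.612, limma). In both, all 4 LPS+XJDHT hearts lay above all 4 LPS hearts. Tinagl1-206, from a gene of a secreted matrix protein, was at 8.46, 4.14, 3.74 and 6.13 FPKM in LPS and 21.8, 23.3, 7.44 and 13.9 in LPS+XJDHT, where replicate 3 lies inside the LPS range (adjusted p = 0.612). Ube2r2-202, from the gene of a ubiquitin-conjugating enzyme, was at 0.255, 0.267, 1.1 and 6.66 FPKM in LPS and 6.67 to 15.9 in LPS+XJDHT (adjusted p = 0.612), with Control at 4.02 to 11.

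By share, Smox-214, from the spermine oxidase gene, was at 10.1%, 13.9%, 0% and 19.6% in LPS and 55.6%, 82.7%, 29.4% and 38.7% in LPS+XJDHT, with Control at 37.6% to 64.7% (log2 difference 1.18, SE 0.29, adjusted p = 0.728, limma). Nop56-218, from a gene of the small nucleolar RNA machinery, overlaps 9 annotated introns. It was at 0.0314 to 0.106 FPKM in LPS and at 3.21, 3.5, 0.103 and 3.03 in LPS+XJDHT, where replicate 3 alone stayed at the LPS level. Wdr11-203 was at 0.972 to 1.42 FPKM in LPS and 0.438 to 0.725 in LPS+XJDHT, beside a coding sum of 0.0199 to 0.125 FPKM in LPS and 0.928 to 1.75 in LPS+XJDHT. Clk1-202, from the gene of an SR protein kinase whose own introns are known to be retained, was at 3.05, 3.4, 2.67 and 3.9 FPKM in LPS and 4.27, 3.03, 4.77 and 5.14 in LPS+XJDHT. Its coding sum was 3.19 to 4.75 FPKM in LPS and 2.95, 0, 1.67 and 2.08 in LPS+XJDHT (log2 difference of the share 1.42, SE 0.38, adjusted p = 0.728, limma).

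Against Control, LPS+XJDHT hearts had 378 members higher (16.8%) and 86 lower (3.81%) by FPKM, beside 18.6% and 7.35% of all transcripts, and 74 higher (3.51%) and 76 lower (3.61%) by share, beside 4.16% and 3.92%. This comparison shares its Control mice with the first. The listing rule touches it as well, since every member had a mean of at least 0.5 FPKM in LPS or LPS+XJDHT hearts. Control means had no such floor, and the part of the rule in these counts was not tested. Scaling by median ratios gave 268 higher and 126 lower by FPKM, and voom 247 and 61. Without LPS+XJDHT replicate 1 there were 248 higher and 57 lower, and without Control replicate 3 54 lower. By share the number higher was 32, 38, 47 and 46 without Control replicates 1 to 4 in turn and 34, 38 and 36 without LPS+XJDHT replicates 1, 3 and 4, and the number lower was 45, 50 and 44 without Control replicate 3, Control replicate 4 and LPS+XJDHT replicate 1.

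Tinagl1-206 was at 0.975, 1.23, 1.65 and 0.852 FPKM in Control, below all 8 treated hearts, and rose by 2.91 on the log2 scale in LPS+XJDHT (SE 0.33, adjusted p = 0.000136, limma). Lcn2-203 fell by share to 1.22% to 1.61% (log2 change -4.12, adjusted p = 8.29e-06, limma). Chil1-204, from the gene of a chitinase-like secreted protein, had shares of 9.35%, 11%, 20.2% and 43.0% in Control and 5.89%, 5.32%, 2.09% and 0.875% in LPS+XJDHT (log2 change -3.77, adjusted p = 0.000186, limma), as its coding sum rose from 0.518–1.65 to 58.0–83.9 FPKM. The fitted share changes of Lcn2-203 and Chil1-204 depend in size on the added 1 FPKM. Both members lay near or below it in Control. Gbp10-202, from a gene of interferon-induced GTPases, stood at 0.398 to 1.07 FPKM in Control and 1.19 to 4.1 in LPS+XJDHT. Its listed coding transcripts were at 0 in Control replicates 1 to 3 and at 14.6 to 53.9 FPKM in LPS+XJDHT, so no percent can be given for those 3 hearts, and Gbp genes are near-identical copies among which fragments may be split.

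Clk1-202 and Ptcd3-207 gained share in LPS+XJDHT against Control under every setting tried. Clk1-202 went from 28.1% to 68.6% in Control to 145%, 285% and 247% in 3 LPS+XJDHT hearts, and in replicate 2 the coding sum was 0 (log2 change 2.02, SE 0.38, adjusted p = 0.00852, limma). Ptcd3-207 reached 36.6% to 58.1% against 1.22% to 26.9% (log2 change 2.75, SE 0.53, adjusted p = 0.0107, limma). Srsf5-207 rose by FPKM (log2 change 1.03, SE 0.17, adjusted p = 0.00134, limma), and every LPS+XJDHT heart (2.18 to 3.52 FPKM) lay above every Control heart (0.833 to 0.999). Shisa5-213 and F11r-203 entered by rule with calls that single libraries ended. Shisa5-213, from an endoplasmic reticulum protein gene, was at 0.0396 to 2.44 FPKM in Control and 33.0, 3.43, 32.0 and 31.6 in LPS+XJDHT, and its call (adjusted p = 0.0281, limma) was lost without Control replicates 1 (0.0695), 2 (0.0536) or 4 (0.0647) and LPS+XJDHT replicates 1 (0.0715), 3 (0.0668) or 4 (0.0683) and with voom (0.274). F11r-203, from a tight junction gene, was at 15.1 to 21.8 FPKM in Control and 0.512 to 2.24 in LPS+XJDHT, and its call (adjusted p = 0.0494, limma) was lost without any 1 of the 8 libraries compared, with adjusted p from 0.0794 to 0.109.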

How the data were processed

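Total RNA of 12 mouse hearts, depleted of ribosomal RNA, was sequenced. The authors deposited FPKM per transcript for each library. The submitters' processing notes name limma and mm10, with no role or version. Which quantifier was used, and by what rule a transcript was listed, is not given in the sources used here. FPKM times transcript length gave whole fragments (within 0.1) for 97.5% to 97.7% of values and 73.76 to 77.81 M fragments per library, and depth limits members with few fragments.

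Transcript types and exons came from GENCODE M21. The 2 tests were limma (version 3.58.1, R 4.3.3, trend) on log2(FPKM + 1) and on log2 of the member plus 1 over the gene's coding sum plus 1. Transcripts needed 1 FPKM in 4 libraries, all 12 libraries shared 1 estimate of spread, and p-values were two-sided and adjusted over all transcripts tested. The script was tested on simulated data. Summaries were made in Python (3.11.15) with pandas (2.3.3), and plots with matplotlib (3.10.9).

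Described members were the 6 of highest mean, then those without overlap, with adjusted p below 0.05 and at least 2 FPKM in the higher group (8 largest each way in LPS against Control, 4 each way for LPS+XJDHT, or the 4 of smallest p where none passed), and up to 4 per host gene list by smallest p of the share. Genes with predicted or clone names were left out. Results for some transcripts that this rule names are not reported here. Members and lists were chosen with earlier results of these data known. Alternatives were pseudocounts of 0.5 and 0.1 FPKM, no filter or 3 FPKM, the 2 compared groups alone, median-ratio scaling, voom on fragments, other denominators, members with a whole intron, and leaving out each library. A splice-site strength score was planned and not computed, since no genome sequence was used here.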

Additional observations from a re-analysis of the deposited data

Results flagged for a closer look

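In 13 of 186 groups of 4 hearts among the described members and the library sums, 1 heart lay far from the other 3 by Dixon's criterion. Chance gives about 1 in 20 groups. In Control replicate 4, Upp1-204 was high at 0.764 FPKM, Tpm1-217 at 3.41, Ptcd3-207 at 5.72 and Fbln2-206 at 2.59. LPS replicate 3 was high for Ift81-203 (5.79 FPKM) and low for Krr1-201 (0.00374 FPKM), from a gene of ribosome assembly that stood at 3.92 to 4.61 in the other LPS hearts. LPS replicate 4 was high for Ube2r2-202 at 6.66 FPKM. In LPS+XJDHT replicate 2, Trdn-204 stood at 4.71, Shisa5-213 at 3.43 and Rsrp1-204 at 4.74 FPKM. LPS+XJDHT replicate 3 was low for Nop56-218 at 0.103 FPKM, and in LPS+XJDHT replicate 4 Rhot2-216 stood at 2.97 and Rbpms-211 at 13.4 FPKM.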

How the results depend on the processing

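No paired analysis was possible because the labels give the groups no shared replicate numbers. Of all described member values, 1552 kept their direction and side of the threshold, 182 lost and 6 gained the call, and 0 reversed. Of counts and sums, 319 stayed within their tolerance and 90 moved. The fit of 8 libraries and the limit of 50% outside coding exons were chosen after seeing the data, and the cause of each move was not tested beyond the smaller number of members tested.

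By FPKM in LPS against Control, the 296 increases became 131 with a 3 FPKM filter, 188 with voom, 141 with whole-intron members, 107 with members at least 50% outside coding exons and 174 in the 8-library fit. The 102 decreases became 43, 42 and 32 with the filter, whole-intron members and those at least 50% outside. In LPS+XJDHT against Control, 378 increases became 140, 247, 178 and 143 with the filter, voom, whole-intron members and those at least 50% outside, and 86 decreases became 44, 31 and 27 with the filter and the 2 subsets. The percent of calls up went from 81.5 to 68.0 under median-ratio scaling (80.2 with voom), and the median of all transcripts from 0.19 to 0.05.

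By share in LPS against Control, 56 increases became 108 without a filter, 17 with 3 FPKM, 33 in the 2-group fit, 32 with coding sums from the Control and LPS files, 22 with whole-intron members and 20 with those at least 50% outside. The 84 decreases became 44 with a pseudocount of 0.1, 183 without a filter, 21 with 3 FPKM, and 36 and 30 in the 2 subsets. In LPS+XJDHT against Control, 74 increases became 126, 20, 29 and 27 without a filter, with 3 FPKM and in the 2 subsets, and 76 decreases became 36 with a pseudocount of 0.1 and 190, 17, 30 and 25 with those settings.

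The percent of coding FPKM (8.10, 8.65 and 9.10 in Control, LPS and LPS+XJDHT) became 7.14, 7.84 and 8.14 without the 10 highest members, 6.59, 7.66 and 8.07 with whole-intron members, and 5.86, 6.78 and 7.17 in fragments. Under median-ratio scaling the gene lists gave 1 SR gene up, 2 hnRNP genes down, 8 core spliceosome genes up, and 6 decay genes up and 2 down.

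Leaving out 1 library at a time gave 183 to 339 members up and 60 to 113 down by FPKM in LPS against Control, 248 to 395 and 54 to 90 in LPS+XJDHT against Control, and 0 to 1 up and 0 to 0 down in LPS+XJDHT against LPS. By share it gave 20 to 59 up and 48 to 84 down, 32 to 80 and 44 to 77, and 0 to 0 in the same order. Gene lists up and down ranged from 2 to 3 and 3 to 5 for SR genes, 14 to 16 and 0 to 1 for hnRNP genes, 11 to 22 and 1 to 3 for the core spliceosome, 2 to 3 and 2 to 3 for cardiac regulators, and 9 to 14 and 0 to 1 for decay genes.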

Other observations

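In LPS+XJDHT against Control, the coding sum, which is the denominator of the share, rose in 67 of the 76 members with a lower share. It fell in 42 of the 74 with a higher share. The member itself rose in 47 of those 74, and among the 76 it rose in 27, fell in 16 and had no call in 33. A further 632 retained-intron transcripts were listed in the LPS+XJDHT files and not in the Control and LPS files, and they were not used here.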
